A study of Homo sapiens with 6 samples.

Results

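ZFP36, ZFP36L1, ZFP36L2, BTG1, BTG2, TOB1, TOB2 and ZC3H12A encode proteins that speed the decay of messenger RNAs. These 8 genes were taken by symbol from the 27451 gene rows of a poly-A RNA sequencing table, and each symbol matched 1 row. The table covers MDA-MB-231, a human triple-negative breast cancer cell line, that is, one without estrogen and progesterone receptors or amplified HER2. There were 3 libraries of cells given H182 at 2 µM for 2 h. For the comparison there were 3 libraries of cells given the vehicle DMSO, also for 2 h. By the title of the series, H182 is one of a group of STAT3 inhibitors. No genetic change distinguished the groups, and all 6 libraries come from the same line. The comparison asked which transcripts had changed after this short exposure.

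ZFP36 (tristetraprolin) and its relatives ZFP36L1 and ZFP36L2 hold a pair of zinc fingers that bind AU-rich elements in the 3′ untranslated region (3′ UTR) of an mRNA, and they recruit the CCR4-NOT deadenylase, which shortens the poly(A) tail. BTG and TOB proteins bind the catalytic CCR4-NOT subunits CNOT7 and CNOT8, and the TOB proteins also bind the poly(A)-binding protein PABPC1. ZC3H12A (Regnase-1) is an endonuclease that cleaves stem-loops in the 3′ UTRs of inflammatory mRNAs, studied mostly in immune cells. Several of these genes are themselves transiently induced by growth factors or stress, and ZFP36 mRNA carries an AU-rich element of the kind its own protein binds.

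The AU-rich nonamer TTATTTATT, which ZFP36 proteins bind, lay once in the longest annotated 3′ UTR of each of the 3 ZFP36 family genes and in none of the other 5 members. Over all tested genes with an annotated 3′ UTR, 9.43% (1100 of 11663) held it. BTG1, BTG2 and TOB2 held the shorter core TATTTAT once each, and TOB1 and ZC3H12A held neither. The sites are shown because the results below compare genes with and without this element. Each is written 5′ to 3′ on the strand of the gene, from the GENCODE 29 transcripts on GRCh38, with the nonamer in capitals for the ZFP36 family and the 7-base core in capitals for BTG1, BTG2 and TOB2.
ZFP36 chr19:39409197-39409223 (plus strand): atgacgactTTATTTATTctaatatga
ZFP36L1 chr14:68788078-68788104 (minus strand): actgttggaTTATTTATTttagaaatt
ZFP36L2 chr2:43223449-43223475 (minus strand): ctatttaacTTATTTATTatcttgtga
BTG1 chr12:92140771-92140797 (minus strand): atagatttctTATTTATctgaaggtat
BTG2 chr1:203307529-203307555 (plus strand): aatgaagagcTATTTATatatattatt
TOB2 chr22:41435381-41435407 (minus strand): cgcaagtcctTATTTATatgtgaggct
The ZFP36 site starts at base 507 of a 713-base 3′ UTR, and that of ZFP36L1 at base 2393 of 2828. This longest ZFP36L1 3′ UTR takes up 2828 of its transcript's 3094 bases, which leaves few for coding sequence. Another annotated ZFP36L1 transcript, with a 1871-base 3′ UTR, also holds the nonamer once, so the position depends on the transcript. A shorter annotated transcript of ZFP36, with a 444-base 3′ UTR, and one of ZFP36L1, with a 211-base 3′ UTR, do not reach the site. Values per gene do not separate these transcripts. The pentamer ATTTA, the smallest unit of such elements, was counted in the same longest 3′ UTRs. It occurred 8 times in ZFP36L1, over those 2828 bases, and 5 times each in ZFP36, ZFP36L2 and BTG1. It occurred 4 times in TOB1, 3 times in TOB2, 2 times in BTG2 and 0 times in ZC3H12A.

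The line was checked by its markers. VIM, CD44, AXL and CAV1, which mark this mesenchymal line, were at 317 to 4051 TPM (transcript abundance per length, scaled to a fixed total per library), and ESR1, PGR and CDH1 were below 1 TPM in all 6 libraries. EPCAM, expected low, was at 12.5 to 16.2 TPM. Of 9 markers of blood, endothelial, fibroblast and red cells, 5 were below 1 TPM in all libraries, and 1 of these, HBB, was at 0. Of the other 4, CD68 was at 138 to 157 TPM, COL1A1 at 6.81 to 8.37 TPM, and PTPRC and PDGFRB below 2 TPM. The 9 together summed to 146 to 150 TPM in H182 libraries and 154 to 168 TPM in DMSO libraries, and their part in the results below was not tested. TPM hold no read numbers, and library depth is therefore unknown. Over tested genes, log2 values correlated at 0.9928 to 0.9942 between libraries of the same group and at 0.9787 to 0.9806 between groups, across genes that are not independent replicates. In bulk RNA, a change in the number of expressing cells and a change in RNA per cell cannot be told apart.

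Of the 8 genes, 7 reached the mean of 1 TPM needed for testing. Of these 7, 6 rose and 1, ZFP36L2, fell in H182 (limma on log2(TPM + 1), Benjamini-Hochberg adjusted p under 0.05). Over all 12294 tested genes, 24.0% were called, with 5.30% higher and 18.7% lower. With median-of-ratios scaling, which gave the same 6 and 1 members, 14.7% were called, with 7.88% higher and 6.78% lower. BTG2, the 8th gene, averaged 0.91 TPM and was not tested. In TPM the H182 and DMSO libraries did not overlap for any of the 8 genes, with 7 higher and 1 lower in H182. The groups did not overlap in 41.4% of tested genes, 8.67% higher and 32.7% lower. The exact two-sided permutation test gave p = 0.1 for each of the 8, the smallest value that 3 against 3 libraries allow.

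**Figure D1:**
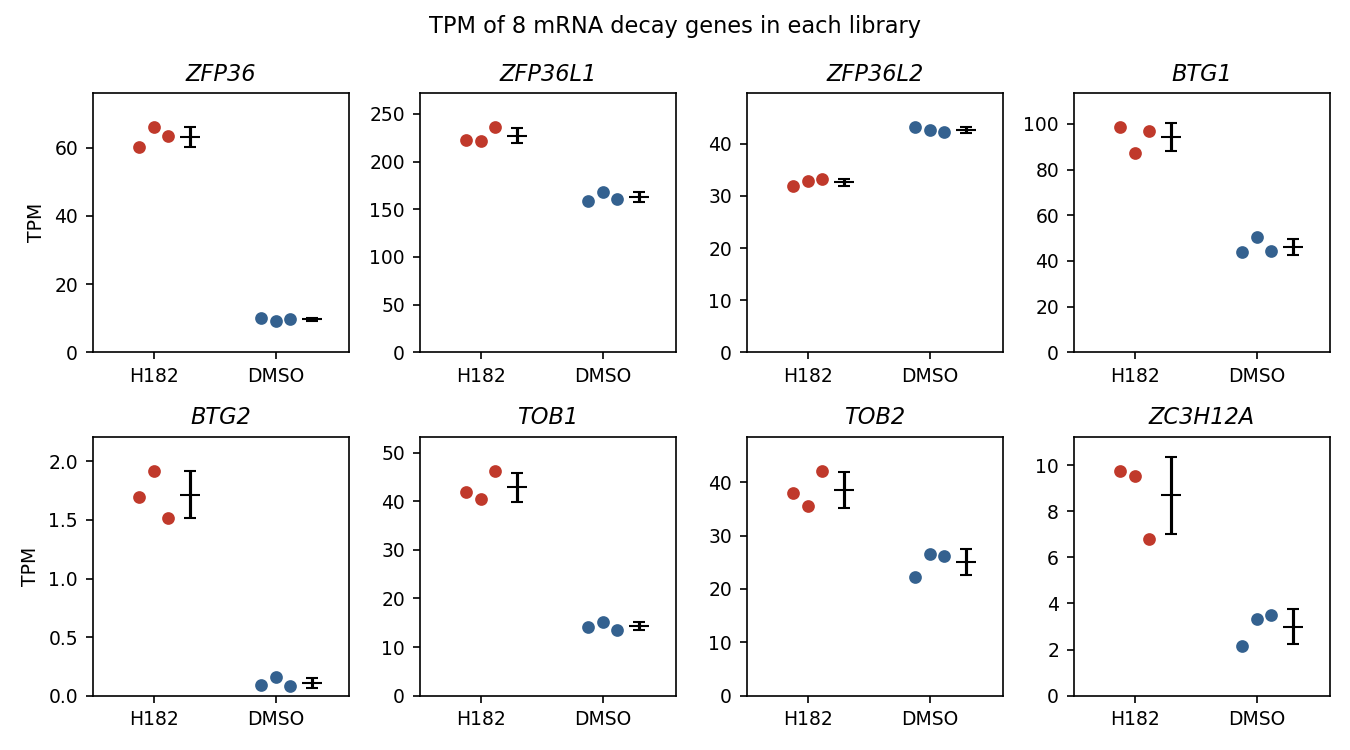
TPM of the 8 genes in each library (points, 1 per library) with the group mean and SD beside them (black bars), H182 left of DMSO, 1 panel per gene on a linear axis from 0 that differs between panels. The H182 points lie above the DMSO points in 7 genes and below them in ZFP36L2.

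ZFP36 (ENSG00000128016.5, chromosome 19, 39406813 to 39409412, GRCh38, plus strand, 2 exons) had the largest change on the log2(TPM + 1) scale of the 8. It was at 60.2, 66.0 and 63.5 TPM in the H182 libraries, against 10.1, 9.25 and 9.82 TPM in the DMSO libraries. Every H182 library was far above every DMSO library. The mean rose to 63.2 ± 2.94 TPM in H182, against 9.73 ± 0.442 TPM in DMSO (SD, n = 3 each), a ratio of 6.50. On the log2(TPM + 1) scale this was a change of 2.58 (SE 0.0677, limma adjusted p = 4.44e-09), larger than that of 99.68% of tested genes.

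ZFP36L1 (ENSG00000185650.9, chromosome 14, 68787660 to 68796253, minus strand), which binds the same elements, was the most abundant of the 8 in both groups. Its level was 223, 222 and 236 TPM in H182, against 159, 168.5 and 161 TPM in DMSO. The groups were apart, but by a smaller factor than in ZFP36, with a ratio of means of 1.39. The log2 change was 0.48 (SE 0.0425, limma adjusted p = 4.98e-05).

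ZFP36L2 (ENSG00000152518.6, chromosome 2, 43222402 to 43226609, minus strand), the third relative, moved the other way. It was at 31.9, 32.8 and 33.2 TPM in H182, against 43.2, 42.6 and 42.2 TPM in DMSO. All 3 H182 libraries were below all 3 DMSO libraries, and the SD within each group was 0.667 TPM in H182 and 0.509 TPM in DMSO. The change was -0.38 (SE 0.0531, limma adjusted p = 0.00101), and 6.735% of tested genes had a lower one. With median-of-ratios scaling, under which the median change of all tested genes was 0.00, against -0.09 in deposited TPM, the change of ZFP36L2 was -0.28 (adjusted p = 0.00533).

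The makeup of the ZFP36 family therefore differed between the groups. Its summed level was 323 ± 9.04 TPM in H182 and 215 ± 4.50 TPM in DMSO, a ratio of 1.501. ZFP36 made up 19.6 ± 0.860% of that sum in H182 and 4.53 ± 0.293% in DMSO. ZFP36L2 made up 10.1 ± 0.131% in H182 and 19.8 ± 0.502% in DMSO. ZFP36L1 held most of the sum in both, at 70.3 ± 0.971% in H182 and 75.6 ± 0.789% in DMSO. A ratio of 2 genes within a library does not depend on the scaling. ZFP36 was 1.89, 2.01 and 1.92 times ZFP36L2 in the H182 libraries, against 0.234, 0.217 and 0.233 times in the DMSO libraries, so the order of the pair was inverted in every library. The log2 difference of this ratio between groups was 3.09, and that of ZFP36 to ZFP36L1 was 2.22. For these and for the 2 other ratios below, 4 in all, the exact two-sided permutation p was 0.1, the smallest possible.

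**Figure D2:**
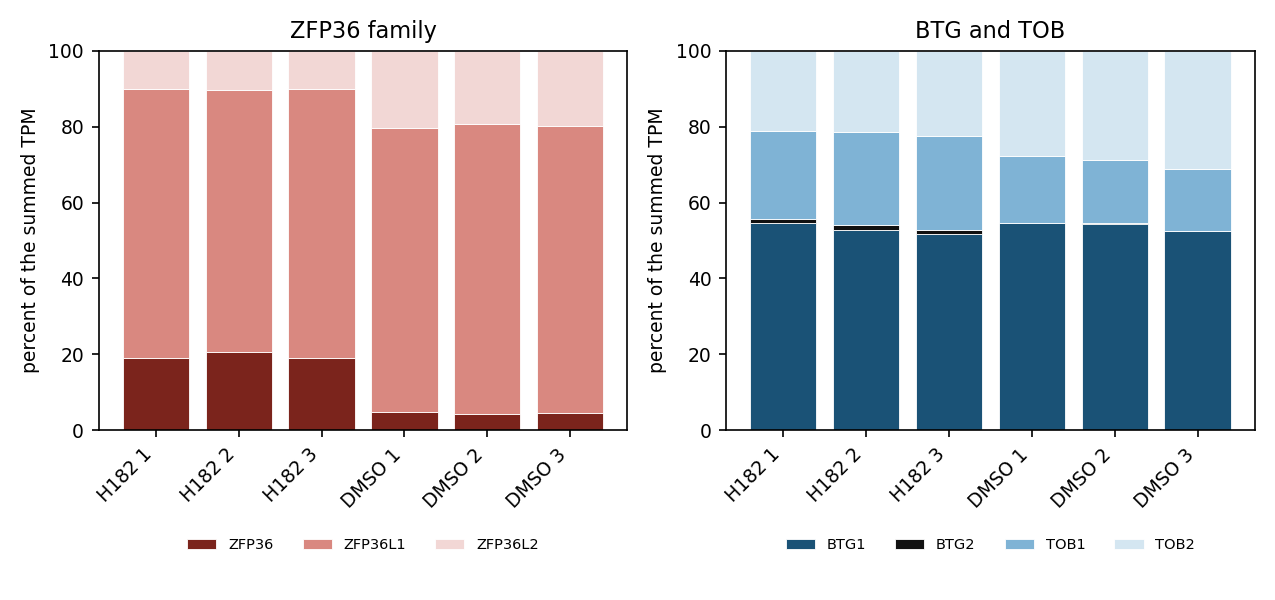
Share of the summed TPM of each family held by each member, as a percent (1 stacked bar per library, the 3 H182 bars left of the 3 DMSO bars). On average ZFP36 holds 19.6% of its family in H182 and 4.53% in DMSO, and TOB1 holds 24.2% of the BTG and TOB sum in H182 and 16.7% in DMSO.

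BTG1 (ENSG00000133639.4, chromosome 12, 92140278 to 92145897, minus strand), which binds CNOT7 and CNOT8 and restrains proliferation, was at 98.5, 87.4 and 96.8 TPM in H182, against 43.9, 50.2 and 44.1 TPM in DMSO. The lowest H182 library was well above the highest DMSO library. The ratio of means was 2.04 and the log2 change 1.02 (SE 0.0690, limma adjusted p = 6.76e-06). In the GENCODE 29 annotation, BTG1 overlaps the noncoding gene LINC01619 on the same strand over 2637 bases, and that gene was at 0.72 to 2.36 TPM in H182 and 1.33 to 2.89 TPM in DMSO. How reads from the overlap were divided is not given in the sources used here.

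BTG2 (ENSG00000159388.5, chromosome 1, 203305491 to 203309602, plus strand), a relative of BTG1 that is a known p53 target and immediate early gene, was the lowest of the 8. It was at 1.70, 1.92 and 1.52 TPM in H182, against 0.09, 0.16 and 0.08 TPM in DMSO. No DMSO library came near the H182 level. The ratio of means was 15.6, a value that rests on DMSO levels of 0.08 to 0.16 TPM in a table rounded to 0.01. Its mean fell short of the 1 TPM minimum, so it had no test in the fit used elsewhere. In a fit with no minimum, over 19086 genes of which 3.11% rose, its log2 change was 1.29 (SE 0.0869, limma adjusted p = 0.000283). BTG2 was 1.80 ± 0.314% of the BTG pair's TPM in H182 and 0.234 ± 0.0729% in DMSO, and the log2 ratio of BTG2 to BTG1 differed by 2.99.

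TOB1 (ENSG00000141232.4, chromosome 17, 50862223 to 50867978, minus strand) joins CNOT7 to PABPC1 on the poly(A) tail. It was at 41.9, 40.4 and 46.25 TPM in H182, against 14.2, 15.2 and 13.5 TPM in DMSO. The groups were widely apart, with a ratio of means of 2.99. The log2 change was 1.52 (SE 0.0760, limma adjusted p = 7.09e-07). TOB1-AS1 lies on the opposite strand over 1300 bases of TOB1. The library kit kept the strand, but whether counting used it is not given in the sources used here.

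TOB2 (ENSG00000183864.4, chromosome 22, 41433492 to 41447023, minus strand), which has the same partners, changed less. It was at 37.9, 35.6 and 42.2 TPM in H182, against 22.3, 26.6 and 26.25 TPM in DMSO. The groups did not overlap, although 1 DMSO library was lower than the other 2. The ratio of means was 1.54 and the log2 change 0.60 (SE 0.0878, limma adjusted p = 0.00123).

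Within the TOB pair the order in deposited TPM was inverted. TOB1 was 1.10, 1.14 and 1.10 times TOB2 in H182, against 0.636, 0.572 and 0.515 times in DMSO, a log2 difference of 0.96. TOB1 contributed 52.7 ± 0.470% of the pair's TPM in H182 and 36.4 ± 2.45% in DMSO. The BTG pair summed to 95.9 ± 5.82 TPM in H182 and 46.2 ± 3.64 TPM in DMSO (2.08-fold), and the TOB pair to 81.4 ± 6.37 TPM in H182 and 39.3 ± 2.70 TPM in DMSO (2.07-fold).

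ZC3H12A (ENSG00000163874.8, chromosome 1, 37474552 to 37484379, plus strand, 6 exons), the endonuclease gene, was at 9.76, 9.53 and 6.78 TPM in H182, against 2.14, 3.34 and 3.51 TPM in DMSO. Even the lowest H182 library was above every DMSO library. Its SE on the log2 scale was larger than that of the 6 other tested members. Means were 8.69 ± 1.66 TPM in H182 and 2.997 ± 0.747 TPM in DMSO. The ratio of means was 2.90 and the log2 change 1.28 (SE 0.177, limma adjusted p = 0.000923).

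**Figure D3:**
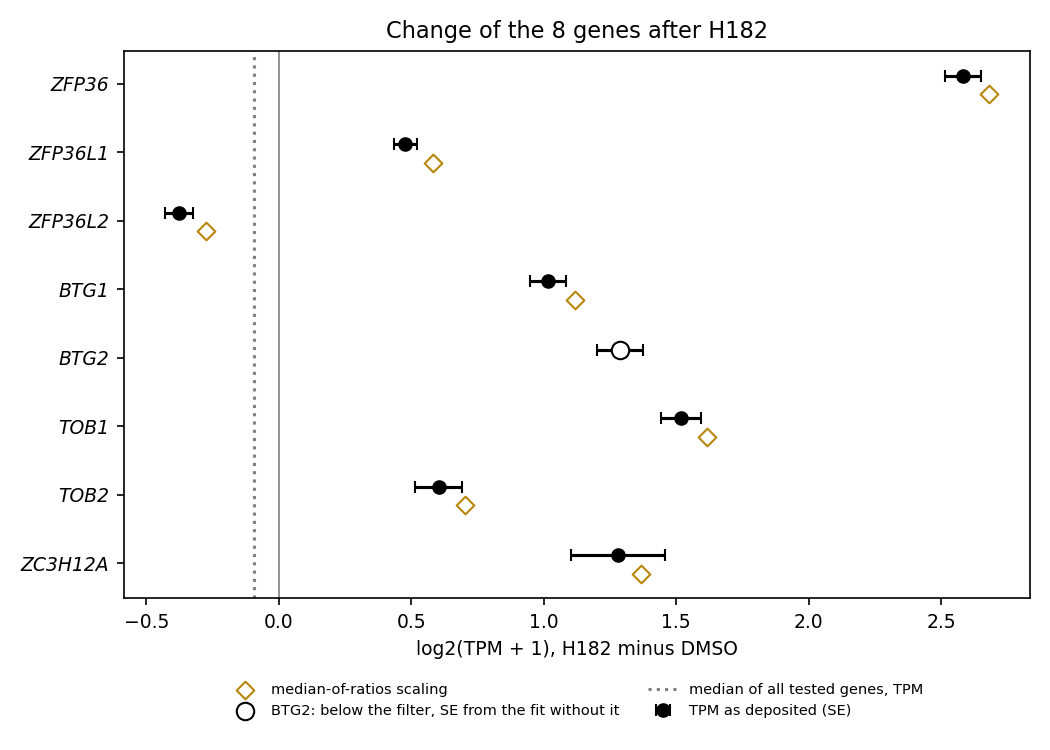
Change of each of the 8 genes, as the difference H182 minus DMSO in log2(TPM + 1) (horizontal axis), with SE bars for deposited TPM (filled points), values with median-of-ratios scaling (diamonds) and the median of all tested genes (dotted line). ZFP36 is farthest right at 2.58, ZFP36L2 alone lies below 0 at -0.38, and BTG2 (open circle) was below the filter.

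TPM are per transcript length, so levels of different genes can be set in a rough order. That order depends on the annotation and read assignment behind the values, which are not given in the sources used here. In H182 the order was ZFP36L1, BTG1, ZFP36, TOB1, TOB2, ZFP36L2, ZC3H12A and BTG2, and among neighbours the ranges over libraries overlapped for TOB1 and TOB2 alone. In DMSO it was ZFP36L1, BTG1, ZFP36L2, TOB2, TOB1, ZFP36, ZC3H12A and BTG2, with no overlap between neighbours. ZFP36 thus stood 3rd in H182 and 6th in DMSO.

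Promoters are shown for the 3 members whose windows hold GCGGGGGCG or TGACGTCA. Each window runs from 250 bases before to 50 bases after the transcription start, from RefSeq on GRCh38.p14, and is written 5′ to 3′ on the gene's strand. Capitals mark GCGGGGGCG, the core bound by EGR proteins, and CCAAT in BTG2, GCGGGGGCG and TATAAA in ZC3H12A, and the cyclic AMP response element TGACGTCA in ZFP36L1.
BTG2 chr1:203305269-203305568 (plus strand): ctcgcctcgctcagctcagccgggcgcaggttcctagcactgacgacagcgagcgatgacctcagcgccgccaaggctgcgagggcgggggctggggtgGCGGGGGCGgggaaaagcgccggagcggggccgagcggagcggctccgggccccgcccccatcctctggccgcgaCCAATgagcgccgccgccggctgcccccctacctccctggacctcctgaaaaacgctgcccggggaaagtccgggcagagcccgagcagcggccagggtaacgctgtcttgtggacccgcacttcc
ZC3H12A chr1:37474330-37474629 (plus strand): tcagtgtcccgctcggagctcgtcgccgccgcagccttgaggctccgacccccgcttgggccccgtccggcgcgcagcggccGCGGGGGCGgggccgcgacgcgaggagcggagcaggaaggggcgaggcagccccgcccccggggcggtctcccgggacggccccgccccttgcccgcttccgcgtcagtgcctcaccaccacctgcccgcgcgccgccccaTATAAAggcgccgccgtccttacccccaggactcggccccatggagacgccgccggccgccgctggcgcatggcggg
ZFP36L1 chr14:68793367-68793666 (minus strand): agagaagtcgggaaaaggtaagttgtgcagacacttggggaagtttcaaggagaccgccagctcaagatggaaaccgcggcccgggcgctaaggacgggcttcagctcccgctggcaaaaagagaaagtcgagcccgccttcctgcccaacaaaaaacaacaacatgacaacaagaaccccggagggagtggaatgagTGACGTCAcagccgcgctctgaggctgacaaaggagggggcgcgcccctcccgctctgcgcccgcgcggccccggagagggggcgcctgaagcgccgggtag
Searched on both strands, GCGGGGGCG lay in 5.07% of 35116 RefSeq promoter windows, TGACGTCA in 1.85%, TATAAA in 11.5% and CCAAT in 34.6%. The windows of BTG1, ZFP36, TOB1 and TOB2 held neither GCGGGGGCG nor TGACGTCA, and that of BTG1 held TATAAA and CCAAT. TOB1 and ZFP36L1 have 2 windows each, of which 1 of TOB1 and the ZFP36L1 window not shown held CCAAT. ZFP36L2 had no matched window and was not searched. No window of the other members held a heat shock element (3 alternating units of TTC and GAA with 2 bases between them, in 0.49% of windows). None held an AP-1 site (TGACTCA or TGAGTCA, in 4.95%) or a CArG box (in 1.29%). A CArG box can contain TATAAA. A match here is a description of the letters in the window.

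The pathway around the 8 genes was described by 11 lists. Beside each list stand the shares of all 12294 tested genes, of which 5.30% rose and 18.7% fell. With median-of-ratios scaling these shares were 7.88% and 6.78%. Of 12 tested CCR4-NOT subunits, 1 rose and 3 fell (2 and 1 with median-of-ratios scaling), with a median log2 change of -0.13 beside -0.09 over all tested genes. CNOT8, a deadenylase that BTG and TOB proteins bind, rose to 60.5 ± 2.06 TPM in H182, against 52.5 ± 0.808 TPM in DMSO (limma adjusted p = 0.0184). This call was lost at a threshold of 0.01, without H182 replicate 1 and without DMSO replicate 3. CNOT7, the paralog of CNOT8, fell to 123 ± 0.648 TPM in H182, against 145 ± 6.20 TPM in DMSO (limma adjusted p = 0.00491), a call not made with median-of-ratios scaling. TNKS1BP1 fell by 0.43 on the log2 scale (limma adjusted p = 0.00586), and RQCD1, the CNOT9 subunit, fell by 0.21 (limma adjusted p = 0.0214), a call also not made with that scaling.

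Of 9 genes for PAN2-PAN3, PARN and poly(A)-binding proteins, 3 fell and 0 rose, against 0 fallen and 1 risen with median-of-ratios scaling. PABPC4 was at 269 ± 17.6 TPM in H182 and 332 ± 9.13 TPM in DMSO, and PABPC1, the partner of the TOB proteins, at 2528 ± 26.7 TPM in H182 and 2746 ± 53.9 TPM in DMSO. The third was PABPN1, the nuclear poly(A)-binding protein, with a change of -0.13. Among all tested genes 18.7% fell, and 6.78% with median-of-ratios scaling.

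Of 19 decapping and 5′ to 3′ decay genes, 8 fell and 0 rose, against 0 fallen and 1 risen with median-of-ratios scaling. The 4 with the lowest p were PATL1, DCP2, EIF4ENIF1 and DCP1B, with changes of -0.24, -0.32, -0.42 and -0.57. Of 17 exosome and SKI genes 4 fell and 0 rose (2 fell with that scaling). DIS3L, a catalytic subunit of the cytoplasmic exosome, fell to 20.0 ± 1.19 TPM in H182, against 28.4 ± 1.56 TPM in DMSO (limma adjusted p = 0.00159), and DIS3, its nuclear counterpart, fell by 0.31. EXOSC10, a nuclear exosome nuclease, and TTC37, a SKI subunit, fell by 0.17 and 0.23, calls not made with median-of-ratios scaling. Of 15 genes of nonsense-mediated decay, 1 rose and 1 fell under either scaling. EIF4A3, a core of the exon junction complex, rose by 0.37, and SMG8 fell by 0.37. The median changes of these lists, -0.10, -0.10 and -0.05, were close to that of all tested genes. Among all tested genes 5.30% rose and 18.7% fell, against 7.88% and 6.78% with median-of-ratios scaling.

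Of 20 tested genes for other proteins that bind AU-rich or related elements, 1 rose and 11 fell (2 and 3 with median-of-ratios scaling). Over all tested genes, 5.30% rose and 18.7% fell (7.88% and 6.78% with that scaling). The median log2 change of the list was -0.13, beside -0.09 over all tested genes. NANOS1, a translational repressor, changed most, at 11.8 ± 0.551 TPM in H182 and 32.0 ± 2.61 TPM in DMSO (log2 change -1.36, limma adjusted p = 2.52e-06). RC3H2 (Roquin-2), which binds stem-loops shared with Regnase-1, was at 24.8 ± 1.75 TPM in H182 and 35.8 ± 1.13 TPM in DMSO. HNRNPD (AUF1), which binds AU-rich elements, was at 886 ± 14.8 TPM in H182 and 1068 ± 23.1 TPM in DMSO. All 3 were called lower under either scaling, while IGF2BP3, at -0.27, was not called with median-of-ratios scaling.

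Of 4 tested relatives of the 8 genes, 0 rose and 2 fell, and 0 fell with median-of-ratios scaling. ZC3H12C, a Regnase relative, changed by -0.36 and KHNYN, another protein with a nuclease domain of this kind, by -0.30. BTG3 was at 53.9 TPM in H182 and 56.8 TPM in DMSO and did not pass. The share of all tested genes that fell was 18.7%, and 6.78% with median-of-ratios scaling.

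ZFP36 protein is held inactive by phosphorylation through p38 and its kinase MK2, with 14-3-3 proteins bound, and is activated by the phosphatase PP2A. Of 15 tested genes of this group, 1 rose and 8 fell (2 and 2 with median-of-ratios scaling). The 1 that rose was DUSP1, the phosphatase that turns p38 off, at 783 ± 18.1 TPM in H182 and 23.1 ± 1.01 TPM in DMSO, a 33.9-fold ratio (log2 change 5.03, limma adjusted p = 1.58e-12). YWHAH, a 14-3-3 protein, fell by 0.41, MAPK14, which encodes p38 alpha, by 0.26 and YWHAQ by 0.19. The call for YWHAQ was not made with median-of-ratios scaling. Of 8 regulators of Regnase-1, 0 rose and 2 fell: MALT1, the protease that cleaves it, by 0.43, and TRAF3IP2 by 0.43, the second not called with that scaling. Beside both groups, 5.30% of all tested genes rose and 18.7% fell, against 7.88% and 6.78% with that scaling.

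Levels of mRNAs known as targets were then read, as levels only, since RNA stability was not measured. Both target lists were chosen with earlier results of these data known. Of 25 known targets of ZFP36 family proteins 19 were tested, of which 13 rose and 3 fell under either scaling. Their median log2 change was 0.69, beside -0.09 over all tested genes. Of all tested genes, 5.30% rose and 18.7% fell (7.88% and 6.78% with median-of-ratios scaling). FOS, an AP-1 subunit, was at 150 ± 13.5 TPM in H182 and 4.36 ± 1.11 TPM in DMSO (34.4-fold). CXCL8, a neutrophil chemokine, was at 73.3 ± 5.44 TPM in H182 and 11.1 ± 0.666 TPM in DMSO (6.61-fold), and MYC rose by 1.18 on the log2 scale. DUSP1, also in this list, is described above. CCND1, LIF and PLAU fell by 0.63, 0.49 and 0.37.

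Of 9 known Regnase-1 targets 8 were tested, of which 5 rose and 1 fell under either scaling, with a median of 1.75. Of the 9, 5 are also in the ZFP36 list (IL6, PTGS2, CXCL1, CXCL2 and CXCL3), so the lists are not independent. IL6, an inflammatory cytokine, was at 26.7 ± 2.03 TPM in H182 and 2.52 ± 0.331 TPM in DMSO (10.6-fold, limma adjusted p = 4.47e-08). CXCL2 rose by 3.11 and CXCL3 by 2.59 on the log2 scale, and NFKBIZ, a nuclear regulator of NF-kappaB genes, rose by 1.82. TFRC, the transferrin receptor, fell by 0.43 and REL, at 0.17, did not pass.

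**Figure D4:**
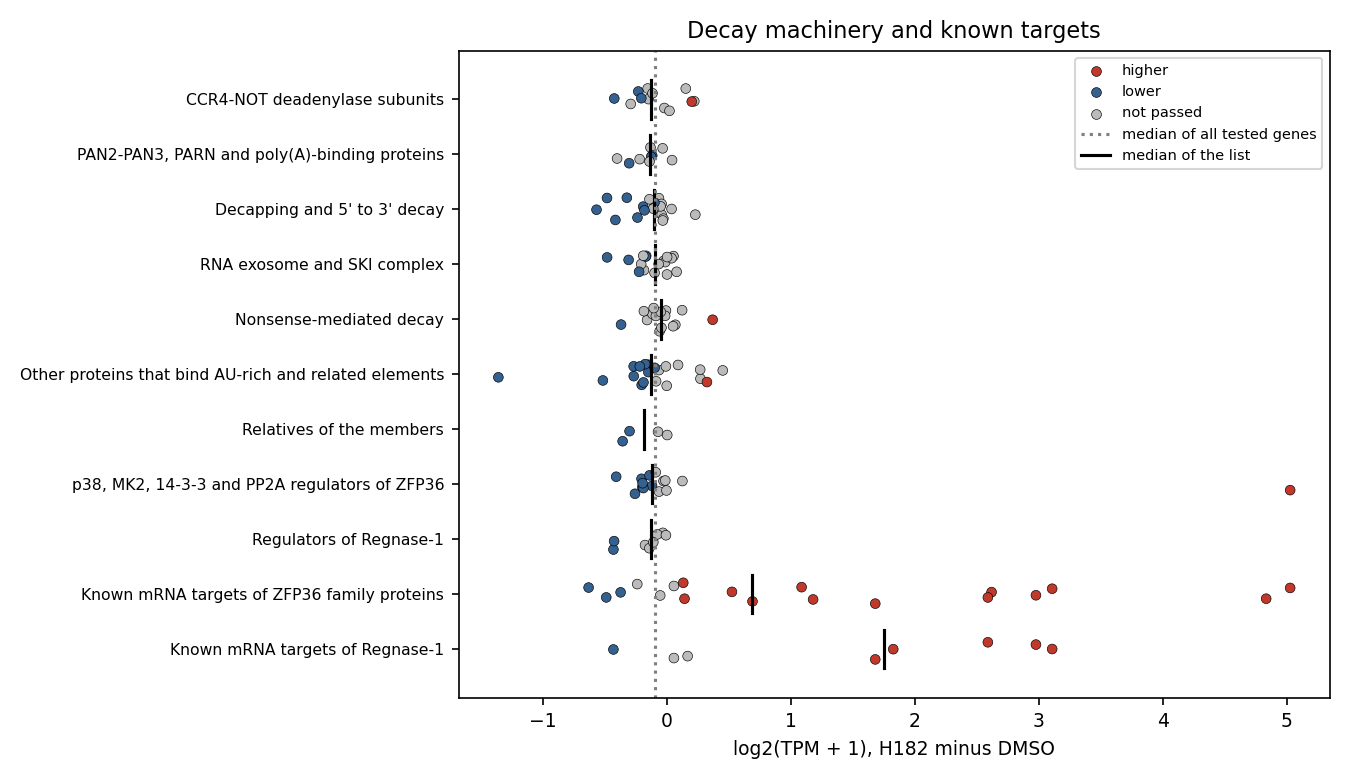
Change of every tested gene of the 11 lists (points, 1 per gene), as the difference H182 minus DMSO in log2(TPM + 1), coloured by call (red higher, blue lower, grey not passed), with list medians (black lines) and the median of all tested genes (dotted line, -0.09). The medians of both target lists, 0.69 and 1.75, lie right of all the other lists.

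The nonamer was found in 13 of the 19 tested ZFP36 targets (68.4%), a list whose members were in part recognised by such elements. Of the 13, 9 rose and 1 fell. Of the 6 without it, 4 rose and 2 fell. Sites of 3 of the risen targets are shown beside those of the ZFP36 family above, with the nonamer in capitals, from the same source. DUSP1 holds 2 such sites, of which the one nearer the 5′ end of the 3′ UTR is given.
DUSP1 chr5:172768644-172768670 (minus strand): ggctggtccTTATTTATTtaacttcac
FOS chr14:75282061-75282087 (plus strand): gtttttaatTTATTTATTaagatggat
CXCL8 chr4:73742665-73742691 (plus strand): tgtaaagtaTTATTTATTtgaatctac

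For each gene, the longest annotated 3′ UTR of its protein-coding transcripts was searched and measured, whichever transcript the cells express. Over all tested genes with an annotated 3′ UTR, those with the nonamer had a larger share called higher. Of 1100 genes with it, 91 rose (8.27%) and 181 fell (16.5%). Of 10563 genes without it, 520 rose (4.92%) and 2068 fell (19.6%). With ATTTA in at least 3 places in place of the nonamer, the order of the shares that fell was turned, at 19.9% with and 18.8% without. With median-of-ratios scaling the shares that rose were 11.7% with and 7.47% without, and those that fell 5.55% with and 7.02% without. The median changes, -0.08 with and -0.10 without, were close to each other. Genes with the nonamer had longer 3′ UTRs, with a median of 3088 bases against 1228 bases. The genes were therefore also split into 3 groups of like size by 3′ UTR length, a split chosen after the data were available. In the shortest group 19.6% (18 of 92) of genes with the nonamer rose, against 4.66% of those without. In the middle group it was 10.6% with and 5.84% without, and in the longest 5.99% with and 4.19% without. The 3 ZFP36 family members belong among the genes with the element, and ZFP36L2 among those of them that fell. No test was made of these shares.

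**Figure D5:**
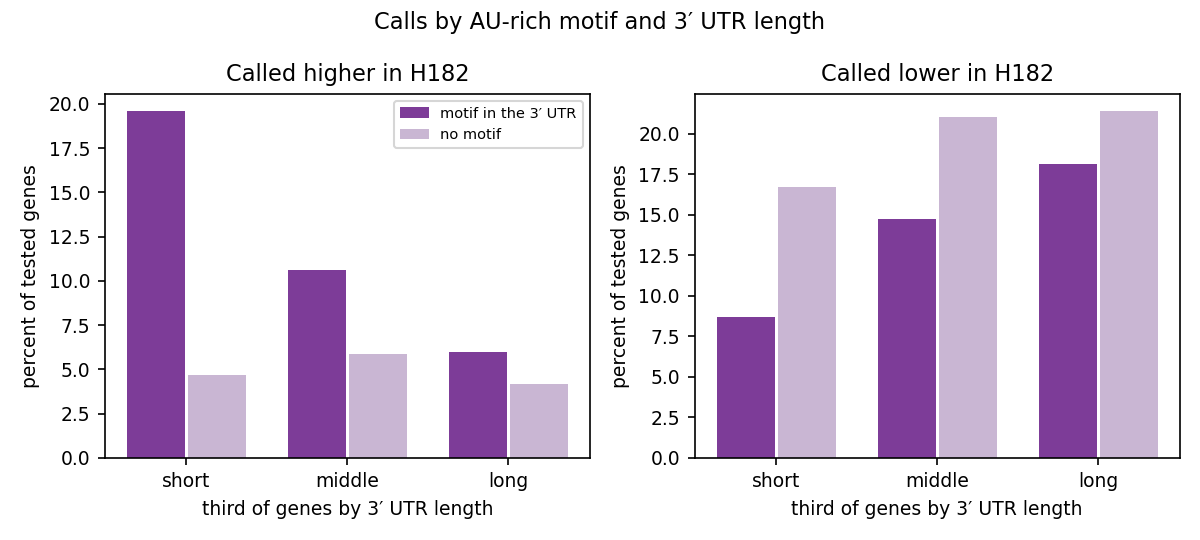
Percent of tested genes called higher and called lower in H182 (vertical axes, left and right panel), for genes with the nonamer (dark bars) and genes without it (light bars), by 3′ UTR length group. The share called higher is larger with the nonamer in all 3 groups, most so in the shortest, at 19.6% with and 4.66% without.

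The genes whose pattern was most like that of ZFP36 were DEDD2, INSIG1 and GEM, by the Euclidean distance over the 6 libraries of log2(TPM + 1) minus the DMSO mean. Their distances were 0.123, 0.137 and 0.157. DEDD2 was at 125 ± 3.11 TPM in H182 and 20.1 ± 0.150 TPM in DMSO, and GEM, a small GTPase, at 139 ± 3.39 TPM in H182 and 22.7 ± 1.32 TPM in DMSO. INSIG1, which retains the sterol sensor SCAP in the endoplasmic reticulum, changed by 2.63. For ZFP36L2, the nearest were MGAT2, VEZF1 and NR2F2, at distances of 0.0461, 0.0511 and 0.0559 and with changes of -0.37, -0.37 and -0.38.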

How the data were processed

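Libraries were made with a stranded kit after poly-A selection, per the labels' protocols, and the submitters' processing notes list RSEM 1.2.25, STAR 2.5.0 and GRCh38. Annotation and strand setting are not given in the sources used here. Values in TPM were deposited by the authors, rounded to 2 decimals, each library scaled to a fixed total, so large rises lower the share of all other genes. The table held 27567 rows, of which 92 spike-in rows at 0 and 24 second rows of genes shared by X and Y were left out. There were 0 unused value columns.

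Values were tested as log2(TPM + 1), a scale that understates changes of low genes, with limma 3.58.1 in R 4.3.3 (mean-variance trend, two-sided, Benjamini-Hochberg over the 12294 genes whose mean reached 1 TPM, threshold 0.05). The script was tested on simulated data. Ratios are of mean TPM. SDs and n are over 3 libraries. No label says that the libraries are separate cultures. The p-values therefore reflect only how these 6 libraries vary, part of which may be technical.

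Members and lists were chosen with earlier results of these data known. Besides the 8 members, the text names per list up to 4 passing genes of lowest p, and the 3 genes nearest to the member with the largest rise and to that with the largest fall. Other list genes named were chosen after their values were seen. A further cell marker is not reported here. Symbols were matched to GENCODE 29 (26943 of 27451 rows by identifier). RefSeq promoter windows were matched for 7 of the 8 members, not for ZFP36L2. Figures used matplotlib 3.10.9 in Python 3.11.15.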

Additional observations from a re-analysis of the deposited data

How the results depend on the processing

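The 7 tested members kept direction and call, 6 higher and 1 lower, under every alternative run. With no filter BTG2 was also called (1.29 on the log2 scale, adjusted p = 0.000283). Counts of falls depended on the scaling. Genes lower numbered 2304 in deposited TPM, 833 with median-of-ratios scaling, 1261 with quantile normalization, 1497 with totals taken without HSPA1A, HSPA1B and DNAJB1, and 998 at a threshold of 0.01. Leaving out 1 library gave 1396 to 2205, with 1478 without H182 replicate 2 and 1396 without DMSO replicate 2. List genes lower numbered 46 in deposited TPM, and 14, 29, 28 and 23 in the same order of alternatives, 27 without a variance trend, and 26 to 44 with 1 library left out. Among these, 26 came without H182 replicate 2, 28 without DMSO replicate 1, and 30 without DMSO replicate 2 or 3. The cause was not tested. Genes higher ranged over 528 to 587 with 1 library left out, against 651 with all.

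The share of genes called higher was 8.27% with the nonamer and 4.92% without, 6.53% with and 4.52% without the 7-base core TATTTAT, and 6.03% with and 4.54% without ATTTA in at least 3 places. The share called lower was 16.5% with the nonamer and 19.6% without, but 19.9% with and 18.8% without ATTTA in at least 3 places, the opposite order. Of the 36 genes named from the lists by the rule of lowest p, 16 lost their call with median-of-ratios scaling and 3 to 10 with 1 library left out. Same-numbered libraries did not visibly deviate together (correlations -0.013, 0.0025 and -0.036, against -0.017 to 0.028 for the other pairs). With 3 libraries per group, a small effect shared by same-numbered libraries could be missed. Whether the numbers mark pairs is therefore not known. A replicate block gave 625 genes higher and 2059 lower and changed no member's call. TPM hold no depth, so precision at low levels such as that of BTG2 could not be given.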
